A study of Homo sapiens with 2 samples.

Results

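Binding of Y-box binding protein 1 (YBX1) was examined in the mRNAs of 7 genes of the nuclear lamina: TMPO, EMD, LBR, LMNB1, LMNB2, LMNA and BANF1. A binding site was counted for a gene when its midpoint lay within the span of that gene on the same strand in GENCODE release 44 (GRCh38). Of 2054 sites in all, 9 lay in these genes, of which 7 lay in TMPO, 1 in LMNB1 and 1 in LMNB2. Thus 3 of the 7 genes had a site, as had 6.77% of 18986 protein-coding genes that have an annotated 3′UTR. TMPO was chosen by its number of sites in this list, and the other 6 genes are its comparison. The sites came from PAR-CLIP, in which cells grow with 4-thiouridine, RNA is crosslinked to the bound protein by UV light, and the protein is pulled down with its RNA. It was performed in HEK293, a human embryonic kidney cell line, in 2 replicates of 1 condition, and the sites of both were pooled into 1 list, which leaves no measure of the spread between replicates. Per the methods the cells were T-REx HEK293 Flp-In with stable overexpression of YBX1 carrying a FLAG/HA tag, and the tag served for the pulldown, whereas both samples are labelled with an antibody to YBX1. The list holds no read count or score, and the depth of single sites is therefore unknown. Intervals given with the values account for counting error alone.

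The nuclear lamina is a mesh of intermediate filaments under the inner nuclear membrane. It is built of B-type lamins, encoded by LMNB1 and LMNB2, and A-type lamins, encoded by LMNA. Proteins of the inner nuclear membrane hold it in place, among them the lamin B receptor (LBR), emerin (EMD) and the lamina-associated polypeptides LAP2, which TMPO encodes. Emerin and the LAP2 proteins carry a LEM domain, through which they bind the small chromatin protein BAF, the product of BANF1. TMPO makes several LAP2 proteins by alternative splicing. LAP2β and LAP2γ end in a membrane anchor, and LAP2α has a different C-terminal part, lies free in the nucleoplasm and binds A-type lamins there.

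The 9 sites are shown because they are all that these genes hold, and because the place of each TMPO site tells which LAP2 transcripts carry it. They are written 5′ to 3′ on the RNA strand, with T for U, and read from GRCh38. Capitals mark the tetramers CAUC (CATC as printed) and CACC, the 2 of 5 tetramers compared with other sites that occur here.
TMPO site 1, chr12:98533130-98533148, plus strand, coding sequence of LAP2α: ttcttcgtCATCttctcag
TMPO site 2, chr12:98533651-98533674, plus strand, coding sequence of LAP2α: tctctcattcactcactaccttag
TMPO site 3, chr12:98534457-98534477, plus strand, 3′UTR of LAP2α: cttctaccCATCaaattacag
TMPO site 4, chr12:98535455-98535472, plus strand, 3′UTR of LAP2α: ccattaccacattcttag
TMPO site 5, chr12:98548430-98548452, plus strand, 3′UTR of LAP2β and LAP2γ: ccctatcatactcactttttaag
TMPO site 6, chr12:98549151-98549169, plus strand, 3′UTR of LAP2β: cttttatattaCATCataa
TMPO site 7, chr12:98549789-98549807, plus strand, 3′UTR of LAP2β: tttcatacacattttcacg
LMNB1, chr5:126836790-126836811, plus strand, 3′UTR: caatattaacctaatCACCatg
LMNB2, chr19:2430487-2430508, minus strand, 3′UTR: ctttctacaaaaccaaattcag

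The TMPO sites fell into 2 of its 3 separate last exons, that of LAP2α and that of LAP2β and LAP2γ. TMPO spans 34773 nt (chromosome 12, 98515579 to 98550351, plus strand). The transcript for LAP2α (TMPO-202, 694 amino acids) has 4 exons, and its last one (98532823 to 98535634, 2812 nt) held sites 1 to 4, which lay in no other of the 6 coding transcripts of TMPO. The transcript for LAP2β (TMPO-212, 454 amino acids) has 9 exons, and its last one (98547573 to 98550351, 2779 nt) held sites 5 to 7. The first 3 exons, which LAP2α, LAP2β and LAP2γ share, held 0 sites in 803 nt, and exons 4 to 8 of LAP2β held 0 sites in 514 nt. These stretches are short, and 0 sites allow up to 4.59 and 7.18 sites per kb in them (exact Poisson 95% limits). The introns held 0 sites in 26275 nt, with an upper limit of 0.140 per kb. Per kb, the last exon of LAP2α held 1.42 sites (0.388 to 3.64) and that of LAP2β 1.08 (0.223 to 3.15), and these intervals overlap widely.

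**Figure D1:**
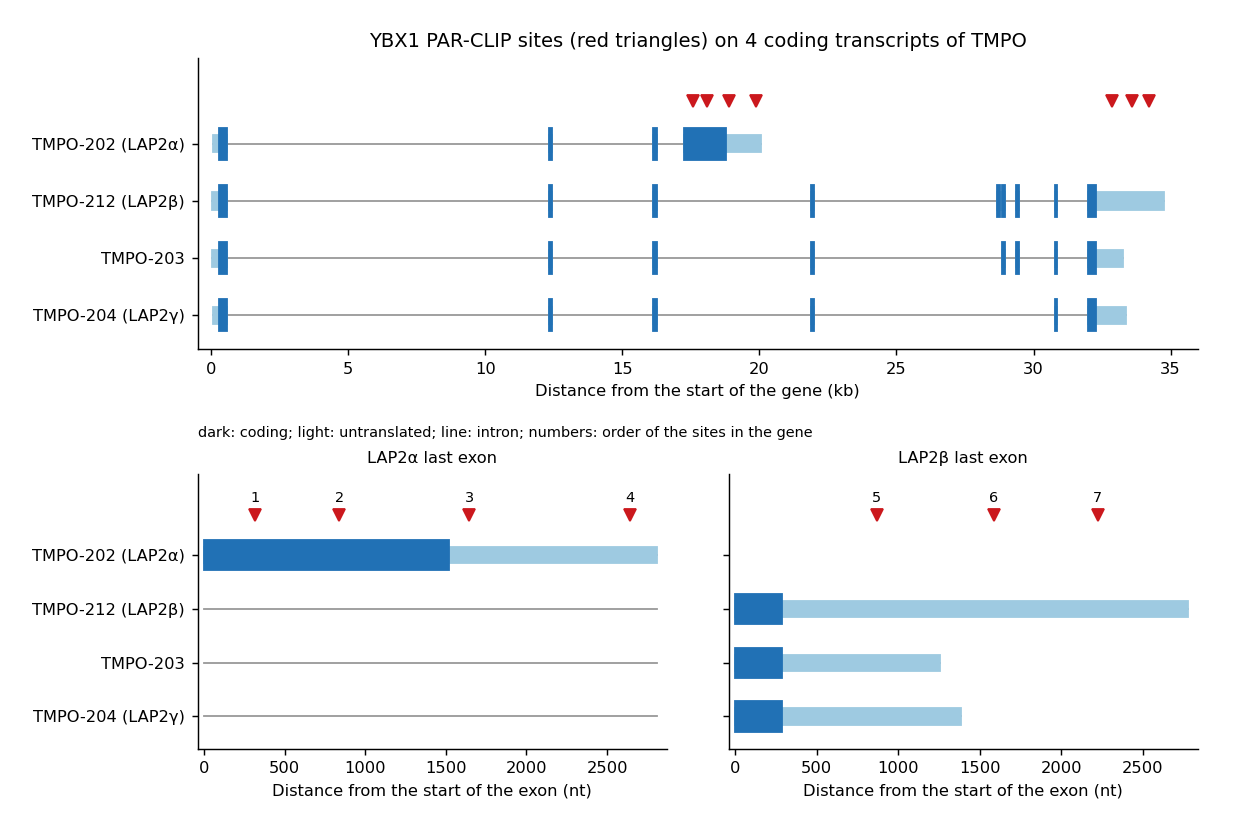
YBX1 sites (red triangles, numbered in the order of the gene in the lower panels) on 4 coding transcripts of TMPO, with the distance from the start of the gene in kb (upper panel) and from the start of each last exon in nt (lower panels). Dark boxes are coding, light boxes are untranslated and lines are introns; 4 sites lie in the last exon of LAP2α and 3 in the 3′UTR of LAP2β, of which 1 also lies in the shorter transcripts.

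In the LAP2α exon, sites 1 and 2 lay in the coding part, over codons 291 to 297 and 465 to 473, and sites 3 and 4 in the 3′UTR of 1292 nt. Both coding sites therefore lie in the sequence that LAP2β and LAP2γ lack. Site 3 began 115 nt after the stop codon, and site 4 began at nt 1113 and ended 162 nt before the end of the transcript. The coding part held 2 sites in 1520 nt (1.32 per kb) and the 3′UTR part 2 in 1292 nt (1.55 per kb), so the sites were not limited to the untranslated part. The sequence of site 4 occurs at a further place in the genome, on chromosome 13 from 84058229 to 84058246 on the minus strand, where GENCODE has no gene. The other 8 sequences occur once.

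In the last exon of LAP2β, all 3 sites lay in the 3′UTR of 2493 nt, and 0 lay in the 286 nt of coding sequence. Site 5 began 572 nt after the stop codon, site 6 at nt 1293 and site 7 at nt 1931. The transcript for LAP2γ (TMPO-204, 345 amino acids) and a further transcript, TMPO-203, use the same stop codon but end after 1099 and 970 nt of 3′UTR. Site 5 lay in all 3 of these transcripts, whereas sites 6 and 7 lay only in the longer 3′UTR of TMPO-212. Transcripts that end in a polyadenylation site mostly carry the signal AATAAA, or the variant ATTAAA, shortly before it. TMPO-202 and TMPO-212 both had AATAAA 26 nt before their end. TMPO-203 and TMPO-204 had neither AATAAA nor ATTAAA in their last 50 nt. Of 18986 protein-coding transcripts, 1 per gene, 80.5% had 1 of these signals there. Which of these transcripts HEK293 cells make is not in these data.

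Neighbouring sites within an exon were 502, 782 and 977 nt apart in the LAP2α exon and 698 and 619 nt apart in the LAP2β exon. Because the MANE Select transcript of TMPO is that of LAP2β, an annotation by 1 transcript per gene places sites 1 to 4 in an intron. Over all transcripts, 3′UTRs held 5 of the 7 TMPO sites (71.4%, Wilson 95% interval 35.9 to 91.8), and the other 2 lay in coding exons. With the MANE Select transcript alone, 3 of 7 lay in the 3′UTR (42.9%) and 4 in an intron. In the authors' annotation 5 TMPO sites were in 3′UTRs and 2 in exons. Over all 2054 sites, the 3′UTR share was 55.4% (53.2 to 57.5) in GENCODE, inside the interval of TMPO. In the authors' annotation it was 35.3% (33.3 to 37.4), just below the lower end of that interval. These 2 shares have another base than that of TMPO. The 2054 sites are not limited to protein-coding genes, whereas the TMPO sites lie in 1 such gene by selection. The 3′UTR share among sites of protein-coding genes alone is not given here.

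The B-type lamins were each bound at 1 place, in the 3′UTR. In LMNB1 (chromosome 5, 126776623 to 126837020), the site began 526 nt after the stop codon in a 3′UTR of 756 nt and ended 209 nt before the end of the mRNA. In LMNB2 (chromosome 19, 2427638 to 2456959), it began at nt 403 of a 3′UTR of 2745 nt and ended 2321 nt before the end of the mRNA. The sites thus lay at 69.6% of the 3′UTR in LMNB1 and at 14.7% in LMNB2. The TMPO sites in 3′UTRs ranged from 8.90% to 86.1%, and 950 sites in 3′UTRs of other genes had a median of 41.0% (quartiles 18.8 and 68.8), so the lamina sites kept to neither end.

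LMNA, LBR, EMD and BANF1 had 0 sites each. Their 3′UTRs measure 975 nt in LMNA (chromosome 1, 156082573 to 156140081), 1801 nt in LBR (chromosome 1, 225401502 to 225428925), 326 nt in EMD (chromosome X, 154379273 to 154381574) and 377 nt in BANF1 (chromosome 11, 66002228 to 66004149). A count of 0 has an exact Poisson upper limit of 3.69 sites, and 1 site in LMNB1 or LMNB2 has an interval of 0.0253 to 5.57. The 7 sites of TMPO have an interval of 2.81 to 14.4, which overlaps both but ignores that this count chose TMPO. A-type and B-type lamins were therefore not distinguishable by their number of sites. The level of each mRNA in these cells is not in the data, so few sites and little mRNA cannot be told apart. A count of 0 is therefore no measurement of absent binding.

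**Figure D2:**
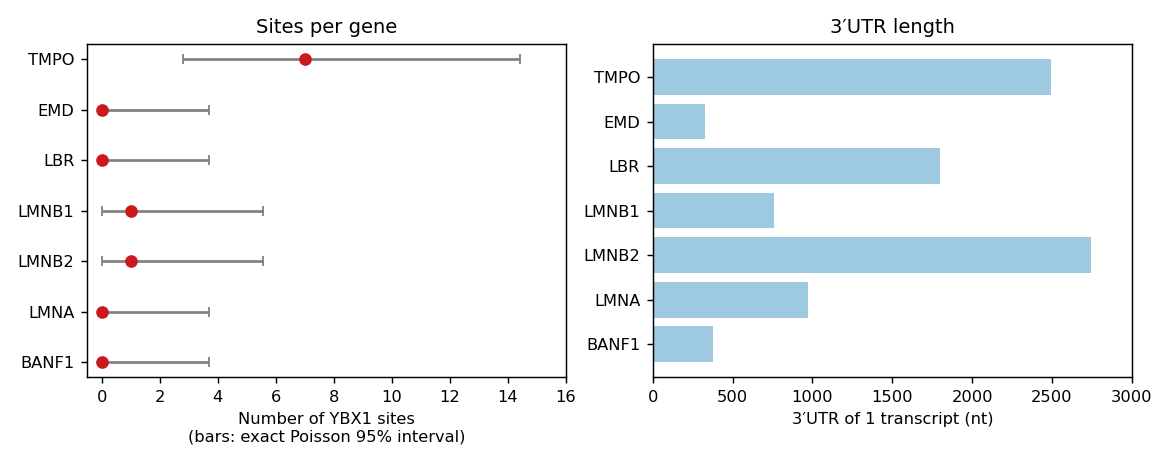
Number of YBX1 sites in each of the 7 genes (left, points with exact Poisson 95% intervals) and length of the 3′UTR of 1 transcript per gene in nt (right, bars). TMPO holds 7 sites, LMNB1 and LMNB2 hold 1 each, and the intervals of the genes at 0 reach 3.69; LMNB2 has the longest 3′UTR of the 7, at 2745 nt, with 1 site.

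Per kb of exon, over the union of all exons of a gene, TMPO had 0.824 sites (0.331 to 1.70), LMNB1 0.275 (0.00697 to 1.53) and LMNB2 0.185 (0.00469 to 1.03). The upper limit was 0.453 per kb in LMNA and 0.646 in LBR, against 1.85 in EMD and 2.47 in BANF1, which are short. Among 1286 bound protein-coding genes with a 3′UTR, TMPO ranked 37th by this density, and the median was 0.187. For 3′UTRs alone, with 1 transcript for each gene, LMNB1 reached 1.32 sites per kb with its single site (0.0335 to 7.37), LAP2β of TMPO 1.20 (0.248 to 3.52) and LMNB2 0.364 (0.00922 to 2.03). With the longest transcript of each gene, LMNB1 was below LAP2β, at 0.625 against 1.20 per kb, so their order depended on the transcript. The 3′UTR of LAP2α had 1.55 sites per kb (0.187 to 5.59). The median of 731 genes with a site in that 3′UTR was 0.451. By number alone, TMPO was the only 1 of the 7 lamina genes with at least 2 sites, which 1.49% of the 18986 genes had, and 5 of these had 7 or more (0.0263%). TMPO and MED13, with 7 each, stood just above the genes with 6, such as IRS4 and TOMM20. These counts chose TMPO and are a description.

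All 9 sites were short and poor in G. Their width ranged from 18 to 24 nt, with a median of 21 nt against 22 nt over all sites. RNase T1, which trimmed the RNA, cuts after G. The base before the site was G for 8 of the 9, TMPO site 7 being the exception, and the last base was G for 8 of the 9, TMPO site 6 being the exception, with G as the next base. Over all sites with a sequence these shares were 79.2% and 87.6%. Site 1 of TMPO alone held an inner G. Each site held at least 6 U, the base at which 4-thiouridine crosslinks, and sites 1, 2, 5 and 6 of TMPO held 9.

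The TMPO sites were pyrimidine-rich, and less rich in C and A together than the sites of the lamins. C and A made up 42.1% of the bases in TMPO site 1, 58.3% in site 2, 66.7% in site 3, 61.1% in site 4, 56.5% in site 5 and 52.6% in sites 6 and 7. They made up 68.2% in LMNB1 and in LMNB2. Of the TMPO sites only site 3 came near the lamins, and 7.81% of all sites were at or below the value of site 1. The median of 1606 sites in 3′UTRs or coding exons of other genes was 62.5% (quartiles 55.6 and 68.4). The 7 TMPO sites held 39.3% U, 29.8% C and 26.0% A on average, and the sites of other genes 32.4% U, 29.0% C and 32.8% A. The difference thus lay in A and U, with C at a similar level. No test was made, since sites of 1 gene are no replicates.

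**Figure D3:**
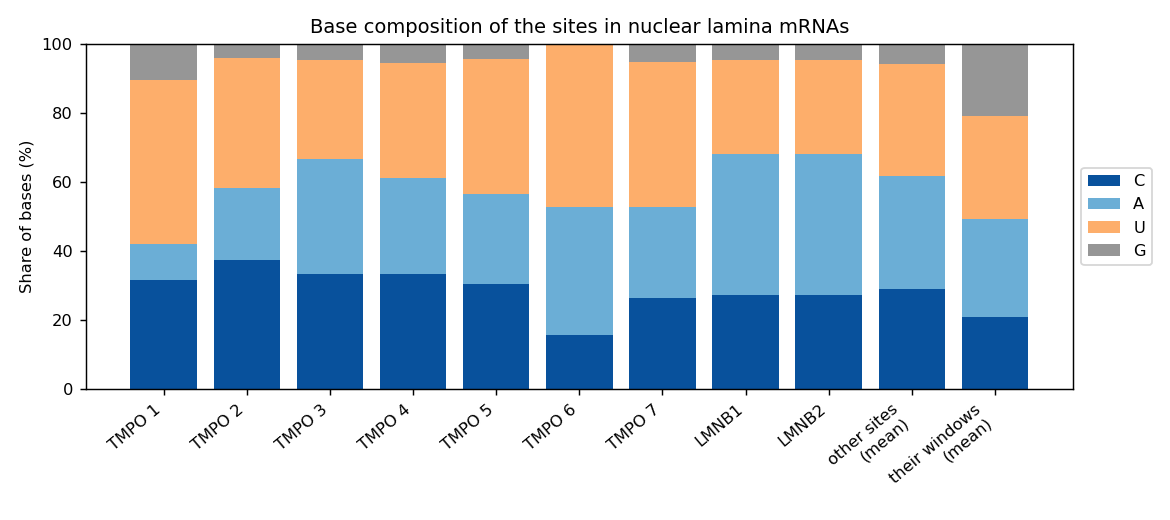
Share of C, A, U and G (stacked bars, percent of bases) in each of the 9 sites, in the mean of 1416 sites in 3′UTRs or coding exons of other genes, and in the mean of their windows 100 nt away. TMPO sites 1 and 6 are at 47.4% U, LMNB1 and LMNB2 are at 27.3%, and G stays at or below 10.5% in every site against 20.8% in the windows of other genes.

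Each site was also set against windows of the same width 100 nt upstream and downstream in the same exon. C and A were higher in the site for 5 of 7 TMPO sites and for both lamin sites. The difference was 36.1 percentage points at TMPO site 4 and 36.4 at LMNB1 (68.2% in the site against 31.8% in its windows), and C and A at LMNB2 were at 68.2% against 43.2%. It was 12.5, 9.52, 10.9 and 2.63 points at TMPO sites 2, 3, 5 and 6, and -13.2 and -7.89 points at sites 1 and 7. The mean over the TMPO sites was 7.23 points (SD 16.1, n = 7 sites), over all 9 sites 12.4 points (SD 17.6), and over 1416 sites of other genes 12.6 points (SD 13.3). C alone was 14.4 points above the windows in TMPO (SD 14.9) and 8.10 points above them in other genes (SD 11.1), whereas A differed from the windows by -7.19 points in TMPO (SD 15.5) and by 4.47 points in other genes (SD 12.8). For C and A together, for C and for A, the SD between the TMPO sites exceeded their mean difference. G was higher in the site than in its windows at 0 of the 9 sites. The mean difference in G was -14.2 points in TMPO, -43.2 in LMNB1 and LMNB2 (4.55% against 47.7%) and -15.0 in other genes. For U it was 7.02 points in TMPO, 12.5 in LMNB1 and LMNB2 and 2.45 in other genes. A lower share of G by itself raises the shares of the other bases. Whether C and A together are raised among bases other than G was not tested.

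Of the 5 tetramers compared, 3 were in 0 of the 9 lamina sites. These were CAAC, held by 29.4% of 1606 sites of other genes, AACA, held by 32.8%, and AACU, held by 30.3%. CAUC was in TMPO sites 1, 3 and 6, thus in 3 of 9 sites against 27.8%, and CACC in LMNB1 alone against 15.0%. At least 1 of the 5 tetramers was in 4 of the 9 sites, and in 74.8% (72.6 to 76.8) of the sites of other genes. The 5 were chosen with earlier results of these data known, so this contrast is a description. Nor did the 9 sites share a long common word. The longest run shared by any pair was actcact, in TMPO sites 2 and 5, which lie in different last exons. Of the 36 pairs, 7 shared a run of at least 6 nt (19.4%), against 23.7% of pairs of sites of other genes.

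The sites were mostly in stretches predicted to be less paired than their surroundings. The predicted chance of a base to be unpaired, in the exon sequence around each site, averaged 55.5% over TMPO site 1, 66.5% over site 2, 57.4% over site 3 and 56.0% over site 4 in the LAP2α exon. In the LAP2β exon it averaged 74.2% over site 5, 59.7% over site 6 and 79.8% over site 7. It was 59.7% in LMNB1 and 69.2% in LMNB2. The sites exceeded their windows by a mean of 13.1 points in TMPO (SD 12.1, n = 7 sites) and by 10.6 points in LMNB1 and 22.2 in LMNB2, against 12.3 points over the sites of other genes (SD 14.2, higher in 80.7% of 1416 sites). TMPO sites 1 and 3 were level with their windows, at 55.5% and 57.3%. These are predictions from sequence, and the low G of the sites was not allowed for.

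**Figure D4:**
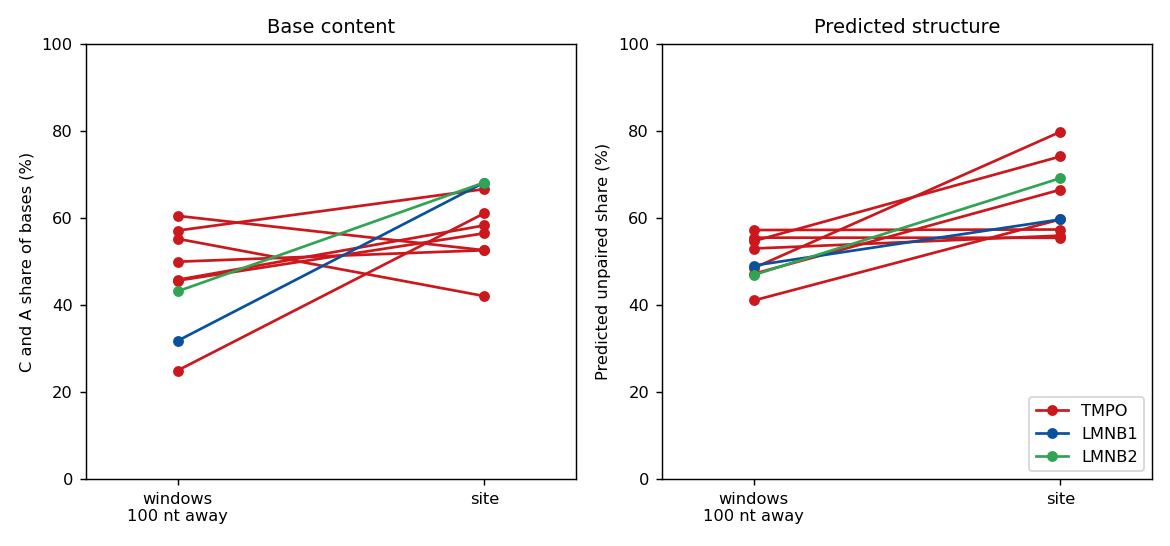
C and A share of bases (left) and predicted unpaired share (right), both in percent, for each of the 9 sites and the mean of its windows 100 nt away, joined by a line; red is TMPO, blue LMNB1 and green LMNB2. C and A fall from window to site at TMPO sites 1 and 7 and rise at the other 7, and the predicted unpaired share reaches 79.8% at TMPO site 7.

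Among genes with a similar number of sites, TMPO stood beside genes with quite different layouts. Of the 8 other genes with 6 to 8 sites, those nearest to TMPO in 3′UTR length included IRS4, TOMM20, MED13 and NUFIP2. The match was loose for MED13 (3863 nt) and NUFIP2 (8700 nt), against 2493 nt in TMPO. IRS4, an adaptor of insulin signaling, had 4 sites in its 3′UTR of 2573 nt and 2 in coding sequence. TOMM20, a receptor of mitochondrial import, had all 6 in a 3′UTR of 2723 nt, but the sequences of 4 of these have further places in the genome, as has that of 1 of 7 sites in TMPO. MED13, a Mediator subunit, had 5 of 7 in coding sequence. The mean C and A share of the sites was 55.7% in TMPO, 57.2% in TOMM20, 62.7% in IRS4, 63.9% in NUFIP2 and 70.1% in MED13, so that TMPO was the lowest of these 5 genes. Sites in more than 1 last exon were also counted. The genes compared needed only 2 sites and were not matched to TMPO in number of sites. Both genes with 7 sites, TMPO and MED13, had sites in 2 last exons. Of 68 genes with at least 2 sites and at least 2 separate last exons of coding transcripts, 6 had sites in 2 of them, namely TMPO, MED13, QKI, LATS1, CNIH1 and HAPSTR1.

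Beyond these 7 genes, most of the listed genes of the nuclear envelope or linked to it had no site, and few had several. Against 6.77% of all 18986 genes, 11.5% of the 5901 whose 3′UTR reached 2000 nt had a site. Of the 7 lamina genes 3 had a site (42.9%, 15.8 to 75.0), and without TMPO 2 of 6. Of 61 further genes in 6 groups, 14 had a site (23.0%, 14.2 to 34.9). These groups were chosen with earlier results of these data known, so their share is a description and no evidence of an excess. The background includes genes that HEK293 cells may not express, and the comparison was not matched for expression.

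Among the chromatin partners of the lamina, 3 of 7 genes were bound. CBX5, which encodes HP1α, a partner of LBR at heterochromatin, had 8 sites, all in its 3′UTR. CBX3, which encodes HP1γ, had 1 in its 3′UTR, as had RB1, the retinoblastoma protein, which LAP2α binds together with A-type lamins. Of 7 genes that take the lamina apart in mitosis or rebuild it, 3 were bound. PPP2CA, the catalytic subunit of the phosphatase PP2A, had 3 sites in its 3′UTR. CCNB1, the mitotic cyclin B1, had 1 in coding sequence and 1 in its 3′UTR, and CDK1, the kinase that phosphorylates lamins with it, had 1 in coding sequence. Of 5 genes of lamin processing, ICMT, which methylates the farnesylated end of lamins, was bound, with 3 sites in its 3′UTR. The sequences of 1 CCNB1 site and 1 ICMT site each have a further place in the genome, and that of 1 of the 8 CBX5 sites has 3 places in all.

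Of 8 genes listed as LEM-domain or other lamina-binding membrane proteins, TOR1AIP2 was bound, at 1 place in its 5′UTR and 1 in coding sequence. Its product activates torsin ATPases, and whether that product binds the lamina is not shown by these data. None of the LEM-domain genes of this group, LEMD2, LEMD3 and ANKLE2, had a site. The LINC complex, which links the lamina to the cytoskeleton, had sites in 0 of 5 genes. In the nuclear pore, 6 of 29 genes were bound (20.7%, 9.85 to 38.4), with 1 site each. NUP153, NUP205 and NUP62 had it in coding sequence, NDC1 and NUP98 in the 3′UTR, and NUP214 in a noncoding exon. TMPO and CBX5 were thus the only genes of these lists with more than 3 sites.

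**Figure D5:**
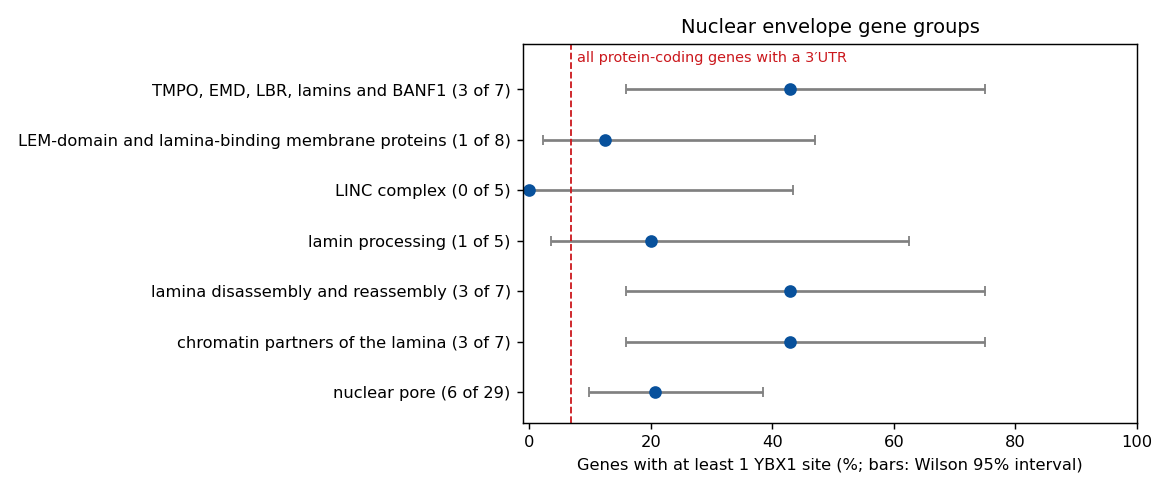
Percent of genes with at least 1 YBX1 site (points, with Wilson 95% intervals) in the 7 lamina genes, which include TMPO, and in 6 further groups. These groups hold genes of the nuclear envelope and genes linked to it, such as mitotic regulators and chromatin partners, with the number bound in brackets. The dashed line marks 6.77%, the share among all 18986 genes; the share runs from 0 of 5 genes in the LINC complex to 3 of 7 in the disassembly group and in the chromatin partners, and the groups were chosen with earlier results known.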

How the data were processed

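The PAR-CLIP of YBX1 comprised 2 replicates of HEK293 cells. For the deposited table, the authors used cutadapt (version 1.4.1) for trimming, PARA-suite for alignment to GRCh38 plus transcripts, BMix for clusters by strand, and HOMER for annotation. The deposited table holds positions, gene names and classes of sites pooled over the replicates, with no counts. Positions were read as starting at base 1, and the last base as 1 before the listed end.

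Genes, transcripts and classes came from GENCODE release 44 by the midpoint of a site, with 3′UTR before coding exon over all transcripts. For lengths, the MANE Select or canonical transcript was used. LAP2 transcripts were named from their protein length. The 5 sites wider than 100 nt gave no sequence. Windows touched no other site. Pairing was predicted with ViennaRNA (version 2.7.2; window 80 nt, span 40 nt, flanks 200 nt). Intervals are exact Poisson or Wilson (scipy 1.17.1). Functions were tested on simulated data.

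The members, lists and tetramers were chosen with earlier results of these data known. Text names the 7 genes, group genes with a site, and the 5 genes nearest to TMPO in number of sites and 3′UTR length, of which 1 is not reported here. Genes with sites in more than 1 last exon were named after their values were seen. No test was run.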

Additional observations from a re-analysis of the deposited data

How the results depend on the processing

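The number of sites in each of the 7 genes was the same with any overlap of at least 1 nt, without regard to strand, with exons only, with the authors' gene names and with sites within 50 nt merged. With only sequences that occur once in the genome, TMPO kept 6 sites. With only sites wider than the median of 22 nt, TMPO had 2 sites, and LMNB1 and LMNB2 had 0 each and 0 per kb of mRNA or 3′UTR. Then 0 lamin processing genes, 2 nuclear pore genes and 7 genes over all 6 groups were bound. This filter by its definition removes a large part of all sites. The share of other genes that would keep a site was not computed, so these falls are not particular to the lamina genes as far as is known. The mean excess of C and A over the windows was 13.5 points with windows 300 nt away, 7.88 points with sites extended by 10 nt and 30.7 points without TMPO, where 2 sites were left. Among A, C and U only, C alone was 10.1 points above the windows over the 9 sites (SD 19.4). This is another measure than C and A together. It was 12.7 points in TMPO, 0.940 in LMNB1 and LMNB2 (higher in 1 of 2 sites) and 4.32 in other genes. Of 94 alternatives, 83 stayed within 1.5 times the number or within the interval of the value. With the LAP2α transcript in place of that of LAP2β, chosen after seeing the data, TMPO had 1.11 sites per kb of mRNA in place of 0.725. No paired analysis was possible because the replicates were pooled into 1 list. The depth behind single sites is unknown.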

Other observations

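The trimer UCA, chosen after the sequences were seen, was in 8 of the 9 sites of the nuclear lamina mRNAs, all but TMPO site 4, and in 58.6% (56.2 to 61.0) of 1606 sites of other genes. UCAU was in 5 of the 9 against 23.8%, and ACAU in 3 of the 9 against 27.5%. These are counts with no test.

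In the authors' annotation, 1 of the 3 ICMT sites was given to RNF207, the NDC1 site to GLIS1 and 2 of the 8 CBX5 sites to MIR3198-2. GENCODE placed these 4 sites in the 3′UTRs of ICMT, NDC1 and CBX5 on the sites' own strand.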
